A study of Mus musculus with 14 samples.

Results

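Cells store neutral fat, mainly triglyceride and sterol ester, in lipid droplets, and the 10 genes described here make, coat and empty those droplets. They are Cidea, Plin2, Plin3, Plin4, Dgat1, Dgat2, Fitm2, Pnpla2, G0s2 and Hilpda, found by gene symbol among the 53700 genes of the deposited tables, which measure neural stem and progenitor cells (NSPCs) of the adult mouse. Both the genes and the lists below were chosen with results of these libraries in view, and the members were selected on their counts in quiescent and proliferating cells, Cidea for its large ratio. For that comparison the members' values are therefore a description: a count of calls is set beside that of all genes, and no p of a single member is given. The p-values printed for members in the Yme1l comparison do not allow for a choice made with these results in view. Of the 10 members, 9 passed the filter on low counts between quiescent and proliferating cells (Plin4 did not) and 7 passed it in the Yme1l comparison (Cidea, Plin3 and Plin4 did not).

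A droplet grows from the membrane of the endoplasmic reticulum when diacylglycerol acyltransferases (DGAT enzymes) join a last fatty acid to diacylglycerol, which makes triglyceride. Perilipins coat the droplet surface, CIDE proteins let small droplets merge into larger ones, and the lipase encoded by Pnpla2 (ATGL) takes the first fatty acid off triglyceride when the store is used. In the brain, droplets are known from glia and from neural stem cells, where fatty acid synthesis and oxidation have both been tied to whether the cells divide.

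RNA selected for poly-A tails was sequenced from NSPCs of the C57BL/6 strain in 14 libraries. Quiescent cells had been treated with BMP4 (4 libraries, replicates 1 to 4) and proliferating cells with FGF and EGF (4 libraries, replicates 1, 2, 4 and 5). In the second pair of groups, all cells were kept in FGF and EGF and received an adeno-associated virus, which carried GFP in the controls (3 libraries) and Cre-GFP in the cells designed as a deletion of Yme1l (3 libraries, called the Yme1l KO here). Yme1l1 encodes the mitochondrial inner membrane protease YME1L. The sample titles name a wild-type mouse for the Cre-GFP group too and give no allele, so the deletion was read from the targeted gene. The Yme1l1 level was 135, 124 and 121 CPM (TMM-scaled counts relative to the library total) in the GFP libraries and 25.7, 25.6 and 22.9 in the Cre-GFP libraries, with an adjusted p of 5.89e-11 in edgeR's quasi-likelihood test. The labels do not say whether replicates were separate animals or cultures, so p-values measure only the spread between these libraries, which may be technical.

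Library totals were 6475099 to 8797750 counts in quiescent, 8331999 to 8992709 in proliferating, 9226080 to 10320736 in GFP and 9053124 to 9490756 in Yme1l KO libraries. Yme1l KO replicate 3 stood apart from the other Yme1l KO libraries on the first principal component (36.5 against 18.6 and 16.6), so the members' values without it are given with the results for the KO. All 8 NSPC markers were above 0 in every group. Of 7 astrocyte markers 5 were called higher and 1 lower in quiescent cells. Their summed level was 4195 to 4427 TPM (transcript abundance scaled for length) against 2797 to 2922 in proliferating cells, carried by Aldoc (mean 3241 against 1826 TPM), while Aldh1l1 was lower (595 against 908 TPM). In the Yme1l comparison the astrocyte sums overlapped (448 to 474 TPM in GFP and 445 to 471 TPM in KO libraries), but 4 of 6 markers tested were called higher, such as S100b (94.2 to 143 TPM), and 1 lower, Aldoc (204 to 110 TPM). Oligodendrocyte lineage marker sums, mostly Olig1 and Olig2, were 2954 to 3222 TPM in proliferating, 2268 to 2424 in quiescent, 1865 to 1986 in GFP and 2349 to 2672 TPM in KO libraries, with Mog at 0 throughout and Sox10 at 0 outside proliferating cells. Of this list 2 were higher and 2 lower of 5 tested in quiescent cells, and 3 higher and 0 lower of 5 in the KO. The NSPC marker sums were 4810 to 5017 TPM in GFP and 3112 to 3565 TPM in KO libraries, with 1 of 8 markers higher and 6 lower. Between quiescent and proliferating cells these sums overlapped (5450 to 6500 and 5371 to 5599 TPM), with 2 of 8 markers higher and 4 lower in quiescent cells. Over all genes tested, 29.9% were called higher and 35.5% lower in quiescent cells, and 25.4% higher and 26.2% lower in the KO. The part of these markers in the results below was not tested, and in bulk RNA fewer cells of a type and less RNA per cell cannot be told apart.

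Promoter sequences are shown for the lipase gene Pnpla2 and for the genes of its protein inhibitors, G0s2 and Hilpda. They were picked because lipase and inhibitors lay on opposite sides of 0 in both comparisons. In the KO, however, Hilpda was not called and its groups overlapped, and the G0s2 call was lost under 6 of 14 other ways of processing. Each sequence is the 250 bases before the start of transcription, read 5′ to 3′ on the gene's strand, from RefSeq on build GRCm38.p6. The sequences span chr7:141454938-141455187 (plus strand), chr1:193273189-193273438 (minus strand) and chr6:29272376-29272625 (plus strand). The last lies before start site 2 of Hilpda. Start site 1 of Hilpda has an overlapping window, chr6:29272238-29272487 (plus strand), which is not printed. Which site belongs to Hilpda-201, the transcript that held all Hilpda counts, was not determined. Capitals mark matches to the motifs searched.
Pnpla2: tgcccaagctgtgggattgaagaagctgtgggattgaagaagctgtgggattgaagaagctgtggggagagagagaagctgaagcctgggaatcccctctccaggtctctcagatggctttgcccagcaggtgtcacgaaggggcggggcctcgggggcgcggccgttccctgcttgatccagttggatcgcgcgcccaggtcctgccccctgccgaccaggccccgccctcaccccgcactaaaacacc
G0s2: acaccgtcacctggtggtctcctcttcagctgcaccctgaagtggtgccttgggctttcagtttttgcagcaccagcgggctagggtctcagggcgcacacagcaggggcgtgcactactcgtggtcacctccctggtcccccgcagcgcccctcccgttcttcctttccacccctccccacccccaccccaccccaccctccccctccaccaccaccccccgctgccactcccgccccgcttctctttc
Hilpda: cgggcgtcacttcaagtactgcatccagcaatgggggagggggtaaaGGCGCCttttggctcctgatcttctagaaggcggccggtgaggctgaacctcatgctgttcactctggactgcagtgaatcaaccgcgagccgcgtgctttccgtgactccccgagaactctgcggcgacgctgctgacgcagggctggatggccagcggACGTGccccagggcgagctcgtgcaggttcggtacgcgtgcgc
Each of 4 motifs was searched on both strands, and none overlaps another. A SMAD element bound after BMP signals, GGCGCC, was present in 9.59% of 32851 mouse promoters of this length. The core of the hypoxia response element, ACGTG, was present in 16.6%. The core site of FOXO factors, GTAAACA, was present in 3.17%. The box that marks some core promoters, TATAAA, was present in 12.4%. The printed Hilpda window held ACGTG from base -43 to base -39 and GGCGCC from base -203 to base -198, counted back from start site 2. In the window before start site 1 of Hilpda the search matched only GGCGCC, from base -65 to base -60. Neither the Pnpla2 nor the G0s2 window held any of the 4 motifs. GC contents of the printed windows were 63.2% (Pnpla2), 67.2% (G0s2) and 63.6% (Hilpda), against a median of 52.4% over all promoters of the table. The window before start site 1 of Hilpda had 48.4%. Of the 10 members, 7 had a promoter in that table, and among the other 4 the search matched only GGCGCC in the Plin4 promoter, from base -14 to base -9.

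**Figure D1:**
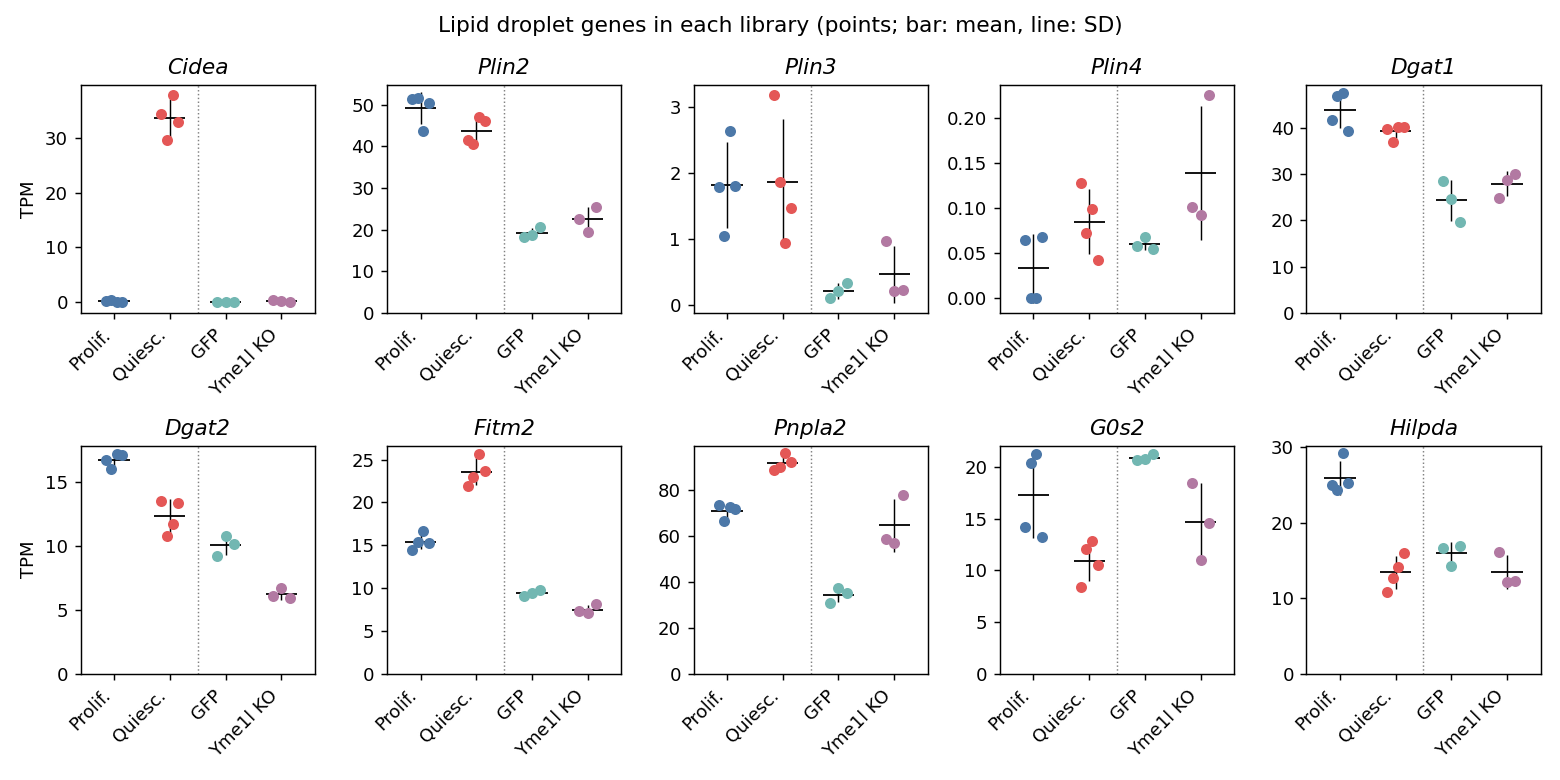
Level of the 10 lipid droplet genes in TPM (vertical axis, scaled for each gene) in every library, with the group mean as a bar and the SD as a line. The dotted line parts the pairs of groups, which the authors quantified separately. Cidea lay at 29.5 to 37.7 TPM in the 4 quiescent libraries and at or below 0.405 TPM in the other 10.

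At the droplet surface, Cidea showed by far the largest difference of the members between quiescent and proliferating cells. Cidea (ENSMUSG00000024526, chromosome 18, 67476674 to 67500855 on GRCm39) encodes a droplet fusion protein best known from brown fat. It had 122, 136, 128 and 132 counts in quiescent replicates 1 to 4 and 1, 2, 0 and 0 in proliferating replicates 1, 2, 4 and 5. The libraries did not overlap, and the summed counts of 518 and 3 gave a ratio of 224 at equal depth, with an exact 95% interval of 76.4 to 1092 that covers counting error only. Cidea was chosen for this ratio and passed the filter on low counts only through its quiescent libraries. The interval does not allow for that choice or for spread between libraries, so it is a description and no test. GFP control libraries had 0 Cidea counts each and Yme1l KO libraries 2, 1 and 0, too few for a fold. Of the 6 adipocyte markers, Adipoq, Lep, Cfd and Ucp1 were at 0 in all quiescent libraries, and the list summed to at most 1.18 TPM there. Microglial markers were higher in quiescent libraries, as the astrocyte marker sum was, at 10.8 to 15.9 against 0.321 to 1.70 TPM in sum, with Cx3cr1, C1qa, C1qb and Itgam at 0 in all of them, and their part in the Cidea difference was not tested. The authors' deposited table gives Cidea a log2 fold of -7.71 for proliferating over quiescent cells.

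In quiescent cells the mean Cidea level of 33.6 ± 3.41 TPM (SD, n = 4) came below 3 of the other members. Pnpla2 came first at 92.0 ± 3.24 TPM, followed by Plin2 at 43.8 ± 3.22 and Dgat1 at 39.3 ± 1.54 TPM. The Cidea and Dgat1 ranges overlapped, so their order is not set by these libraries. Below Cidea came Fitm2 at 23.6 ± 1.57, Hilpda at 13.4 ± 2.18, Dgat2 at 12.3 ± 1.32 and G0s2 at 10.9 ± 1.94 TPM, and the ranges of Hilpda, Dgat2 and G0s2 ran into each other. Plin3 (1.87 ± 0.95) and Plin4 (0.0849 ± 0.037) closed the order.

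In proliferating cells the order began likewise with Pnpla2 (71.2 ± 3.06 TPM), Plin2 (49.3 ± 3.77) and Dgat1 (43.8 ± 3.99), the last a pair with overlapping ranges. Hilpda came next at 25.9 ± 2.25 TPM, above G0s2 (17.3 ± 4.12), Dgat2 (16.8 ± 0.51) and Fitm2 (15.4 ± 0.91), each of which overlapped its neighbour. Plin3 (1.82 ± 0.65), Cidea (0.145 ± 0.186) and Plin4 (0.033 ± 0.038) were lowest.

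Plin2 (chromosome 4, 86566623 to 86588297) encodes the perilipin that coats droplets in most cell types and had the highest TPM of the coat and fusion members in all 4 groups. Its levels were 44.3, 47.1, 44.4 and 49.8 CPM in proliferating and 42.7, 37.4, 43.8 and 43.4 CPM in quiescent libraries. All quiescent libraries lay below all proliferating ones, by a small margin, and on the TPM scale the groups overlapped. The log2 difference, quiescent over proliferating, was -0.15 (SE 0.07). Without quiescent replicate 2, the lowest library, it was -0.015. In the Yme1l comparison Plin2 measured 17.7, 16.1 and 15.8 CPM in GFP and 16.2, 16.8 and 17.9 CPM in KO libraries. These overlapped, with a log2 difference of 0.04 (SE 0.10, edgeR adjusted p = 0.785).

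Plin3 (chromosome 17, 56584476 to 56599873), whose perilipin moves from the cytosol to nascent droplets, was low throughout. It had 35, 20, 26 and 33 counts in proliferating and 22, 32, 12 and 22 in quiescent libraries, and the levels in CPM overlapped. The log2 difference was -0.01 (SE 0.28), and its sign turned under 8 of 16 other ways of processing. In the other pair Plin3 had 2, 4 and 7 counts in GFP and 5, 4 and 4 in KO libraries. Plin4 (chromosome 17, 56407591 to 56416803), a perilipin of fat and muscle, had 0 to 3 counts in each of the first 8 libraries. It had 2 counts in each GFP library and 3, 3 and 7 in the KO libraries, a ratio of 2.33 at equal depth with a 95% counting interval of 0.825 to 7.47, which includes 1.

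Among the genes that build triglyceride, the acyltransferase genes did not move alike. Dgat1 and Dgat2 encode unrelated enzymes for the same last step of triglyceride synthesis. Dgat2 (chromosome 7, 98802865 to 98831926), whose enzyme works close to growing droplets, measured 20.7, 20.3, 21.7 and 21.5 CPM in proliferating and 16.8, 13.0, 14.5 and 16.8 CPM in quiescent libraries. Every quiescent library was lower, and the log2 difference was -0.47 (SE 0.11). Without quiescent replicate 2, the lowest library, it was -0.31. Dgat2 was lower in the KO as well, at 11.0, 12.8 and 10.6 CPM in GFP and 7.12, 7.96 and 7.02 CPM in KO libraries. The groups were apart and the log2 difference was -0.63 (SE 0.14, edgeR adjusted p = 0.0017). Without KO replicate 3 it was -0.60.

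Dgat1 (chromosome 15, 76386215 to 76396153) measured 40.1, 39.6, 41.2 and 31.9 CPM in proliferating and 33.5, 31.5, 35.8 and 38.7 CPM in quiescent libraries. Proliferating replicate 5 sat among the quiescent libraries, so the groups overlapped, and the log2 difference was -0.14 (SE 0.09). It was -0.001 without quiescent replicate 2 and -0.21 without proliferating replicate 5. In the Yme1l comparison Dgat1 was 20.3, 18.3 and 16.4 CPM in GFP and 21.8, 22.4 and 23.9 CPM in KO libraries. The groups were apart in CPM and overlapped in TPM. The log2 difference of 0.31 (SE 0.10) had an edgeR adjusted p of 0.0208, but the call was lost in DESeq2 (adjusted p = 0.114) and without GFP replicate 3 (edgeR adjusted p = 0.111) or GFP replicate 2 (edgeR adjusted p = 0.0584).

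Fitm2 (chromosome 2, 163308299 to 163314549) encodes FIT2, a protein of the endoplasmic reticulum needed for droplets to form there. Its levels were 32.5, 35.4, 38.3 and 34.8 CPM in proliferating and 51.4, 50.3, 57.8 and 53.9 CPM in quiescent libraries. The groups were far apart relative to their spread, with a log2 difference of 0.60 (SE 0.07), the largest positive difference after that of Cidea. Its direction in the KO was the opposite: 19.7, 20.2 and 21.0 CPM in GFP and 15.6, 15.3 and 17.4 CPM in KO libraries. These did not overlap, and the log2 difference was -0.33 (SE 0.10, edgeR adjusted p = 0.0117). Without KO replicate 3 it was -0.39, and DESeq2 did not call it (adjusted p = 0.0739).

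Pnpla2 had the highest TPM of the members in all 4 groups and was higher in both changed groups. This gene (ENSMUSG00000025509, chromosome 7, 141035111 to 141040656) measured 69.8, 66.0, 70.6 and 66.5 CPM in proliferating and 96.3, 80.5, 86.9 and 86.4 CPM in quiescent libraries. The groups were apart, with a log2 difference of 0.36 (SE 0.06). In the Yme1l comparison Pnpla2 rose from 32.3, 36.1 and 31.5 CPM in GFP to 54.4, 52.3 and 66.1 CPM in KO libraries. The groups were apart and the log2 difference was 0.79 (SE 0.09, edgeR adjusted p = 1.35e-05), the largest of the 7 members tested. KO replicate 3 was the highest library, and without it the difference was 0.68. The authors' deposited table gives Pnpla2 a log2 fold of 0.86 in the KO.

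G0s2 (chromosome 1, 192954469 to 192955525) encodes a small protein that binds ATGL and blocks it. It measured 5.80, 8.50, 8.90 and 5.51 CPM in proliferating and 3.56, 4.79, 5.21 and 4.33 CPM in quiescent libraries. The groups just missed each other, and the log2 difference was -0.68 (SE 0.22). In the other pair G0s2 was 8.04, 8.04 and 8.23 CPM in GFP and 7.12, 4.30 and 5.66 CPM in KO libraries. All KO libraries were lower and spread more widely than the GFP libraries, and the log2 difference was -0.51 (SE 0.18, edgeR adjusted p = 0.0284). The call was lost in DESeq2 (adjusted p = 0.112) and without GFP replicate 1, 2 or 3 or KO replicate 2 (edgeR adjusted p = 0.069, 0.0634, 0.0763 and 0.127). Without KO replicate 2 the log2 difference was -0.34.

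Hilpda (chromosome 6, 29272487 to 29275445) encodes the other inhibitor of ATGL and is induced by low oxygen. Its levels were 11.8, 11.8, 14.2 and 12.2 CPM in proliferating and 5.33, 5.84, 6.67 and 7.68 CPM in quiescent libraries. The groups were apart, with a log2 difference of -0.97 (SE 0.16). In the Yme1l comparison Hilpda was 7.53, 6.43 and 7.66 CPM in GFP and 7.22, 5.48 and 5.54 CPM in KO libraries. These overlapped, and the log2 difference of -0.24 (SE 0.17) was not called (edgeR adjusted p = 0.247).

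**Figure D2:**
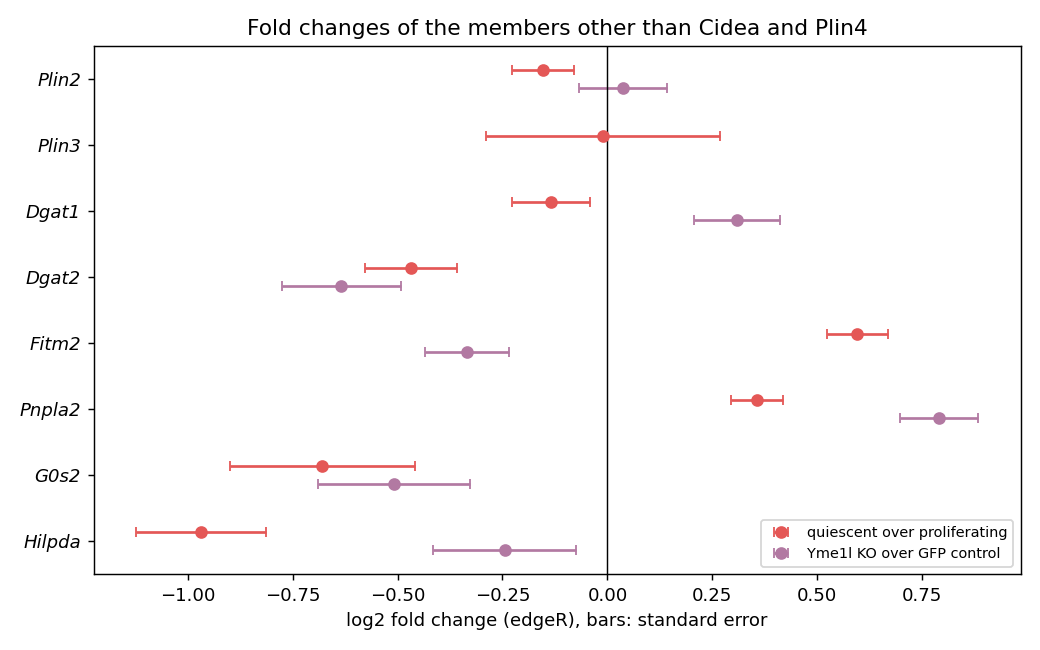
Log2 fold changes from edgeR (horizontal axis) with standard errors as bars, for the 8 members other than Cidea and Plin4, quiescent over proliferating in red and Yme1l KO over GFP control in purple (Plin3 was not tested there). Dgat2, G0s2 and Hilpda lay below 0 and Pnpla2 above 0 in both comparisons. Fitm2 (0.60 and -0.33), Dgat1 (-0.14 and 0.31) and Plin2 (-0.15 and 0.04) lay on different sides. In CPM the groups of Plin2 and Hilpda overlapped in the KO comparison, and those of Dgat1 between quiescent and proliferating cells.

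Counted together, 6 of the 9 members tested between quiescent and proliferating cells were called at an adjusted p under 0.05, 3 of them higher and 3 lower. In that comparison 65.4% of all 12245 genes tested were called, 29.9% higher and 35.5% lower, and since the members were chosen with it in view nothing is read from their count. Their median log2 difference was -0.135 against -0.01 over all genes tested. In the Yme1l comparison 5 of 7 members were called, 2 higher (Dgat1, Pnpla2) and 3 lower (Dgat2, Fitm2, G0s2), where 51.6% of all 12625 genes tested were called, 25.4% higher and 26.2% lower. The members' median was -0.24 and that of all genes 0.00. With so many genes called, 5 of 7 does not set the members apart from other genes. The choice of members with both comparisons in view is not allowed for in these p-values. DESeq2 called only Pnpla2 and Dgat2 of 8 members tested in the KO, and limma on log2(TPM + 1) called Pnpla2, Dgat2 and G0s2. Of all genes tested there, DESeq2 called 36.5% and limma 39.6%. In the authors' deposited table Pnpla2 (adjusted p = 1.03e-08) and Dgat2 (adjusted p = 0.0109) pass 0.05 in the KO, while Fitm2 (0.117), G0s2 (0.164) and Dgat1 (0.462) do not. Without KO replicate 3 edgeR again called 5 members, with log2 differences of 0.27 for Dgat1 and -0.50 for G0s2. Those of Plin2 (0.00) and Hilpda (-0.18) were again not called. Of all genes tested 49.8% were called in that fit.

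The balance of Pnpla2 to the inhibitor gene G0s2 and of one acyltransferase gene to the other was read as a ratio of TPM values within each library. No ratio to Hilpda was made. These ratios were composed after the members' values were seen and carry no test. Pnpla2 over G0s2 was 5.17, 3.28, 3.41 and 5.42 in proliferating and 10.6, 7.48, 7.53 and 8.85 in quiescent libraries. It was 1.50, 1.79 and 1.66 in GFP and 3.18, 5.18 and 5.37 in KO libraries, so within each pair the ranges were apart. Dgat2 over Dgat1 was 0.401, 0.342, 0.362 and 0.435 in proliferating and 0.339, 0.292, 0.292 and 0.333 in quiescent libraries. It was 0.324, 0.438 and 0.518 in GFP and 0.243, 0.234 and 0.197 in KO libraries. Both changed groups thus held more Pnpla2 message per G0s2 message, and less Dgat2 message per Dgat1 message, than every library of their own controls. For Dgat2 over Dgat1 the margin in the first pair was narrow, 0.339 in quiescent replicate 1 against 0.342 in proliferating replicate 2.

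**Figure D3:**
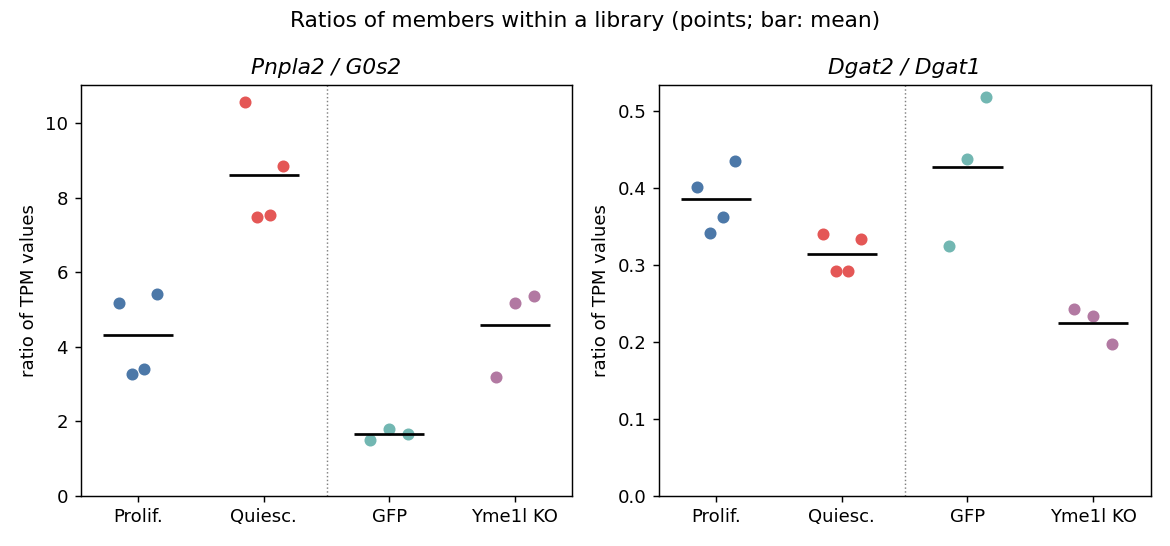
Ratio of TPM values within each library (vertical axis, from 0) for Pnpla2 over G0s2 and Dgat2 over Dgat1, one point per library and a bar at the group mean. Mean Pnpla2 over G0s2 was 4.32 in proliferating, 8.61 in quiescent, 1.65 in GFP and 4.58 in Yme1l KO libraries.

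A further measure, which the choice of members did not use, was the share of each gene's counts on its leading transcript. The leading transcript of Pnpla2 was Pnpla2-201, which the GENCODE annotation (version M21) marks as a target of nonsense-mediated decay, a pathway that removes messages with an early stop. It took 57.5 ± 3.56% of Pnpla2 counts in proliferating (n = 4), 56.1 ± 7.50% in quiescent (n = 4), 59.5 ± 4.96% in GFP (n = 3) and 57.8 ± 1.65% in KO libraries (n = 3). Protein-coding Pnpla2 transcripts held 40.5, 43.2, 39.4 and 41.5% in the same order. Transcript counts are salmon estimates from overlapping transcripts, and the TPM of a gene depends on that split. The leading transcripts of Dgat1, Dgat2 and Plin2 are protein-coding and held 82.3 to 100% of their genes' counts as group means.

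Of the 8 leading transcript shares tested, 0 were called after adjustment and 0 were at an unadjusted p under 0.05 in exact two-sided permutation tests over libraries. With 3 libraries against 3 the smallest p possible is 0.1, and with 4 against 4 it is 0.0286, so no share could have been called after adjustment over the 8 tests, and the 0 calls show nothing about stability. The Dgat1-201 share was 82.3 ± 6.05% in GFP against 90.1 ± 1.72% in KO libraries (exact permutation p = 0.2, adjusted p = 0.8). That of Plin2-201 was 96.1 ± 4.11% in GFP and 88.9 ± 6.20% in KO libraries (exact permutation p = 0.2, adjusted p = 0.8). In shares of TPM the Plin2-201 difference, KO minus GFP, was -16.1 percentage points, against -7.16 in shares of counts. The Pnpla2-201 share differed by -1.71 percentage points (exact permutation p = 0.6, adjusted p = 1).

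**Figure D4:**
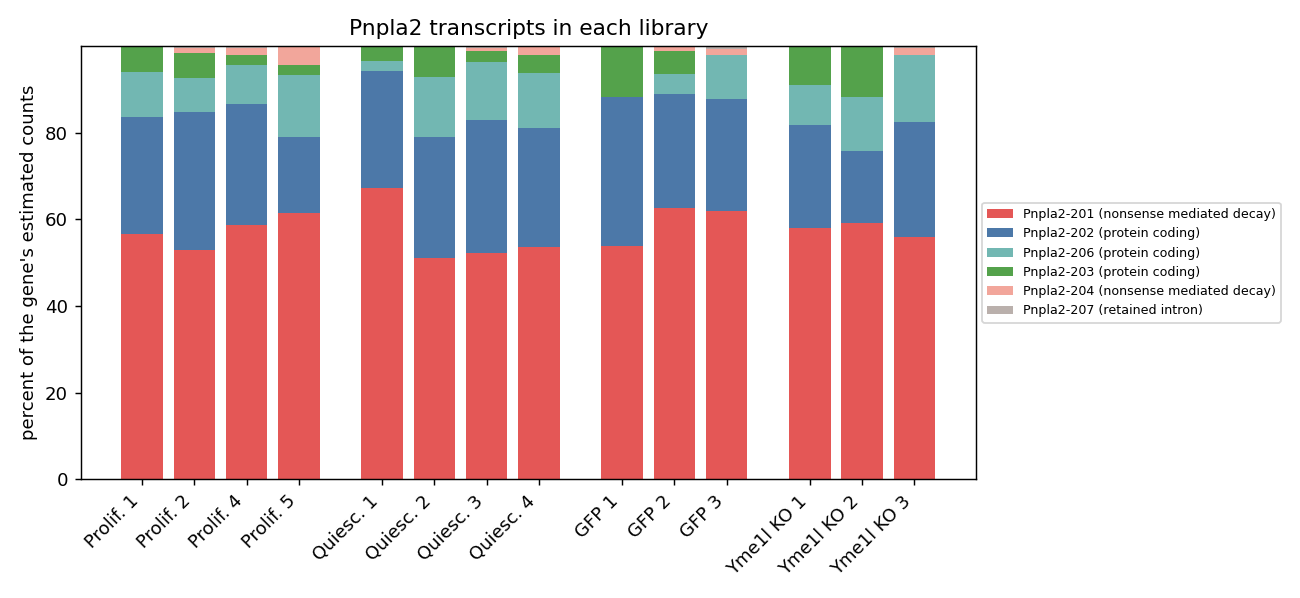
Share of each library's estimated Pnpla2 counts (vertical axis, percent) on each Pnpla2 transcript, with its GENCODE annotation in the legend. Pnpla2-201, annotated as a target of nonsense-mediated decay, is the lowest block and held 51.1 to 67.2% in quiescent and 56.0 to 59.2% in Yme1l KO libraries.

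The genes that work with the members were taken from 6 lists of 60 other lipid droplet genes, 59 of which were found in the tables. Between quiescent and proliferating cells 30 of the 48 tested were higher, 6 were lower and 12 were not called, with a median log2 difference of 0.50. In the KO 17 of 44 were higher, 4 lower and 23 not called, with a median of 0.14. Without KO replicate 3, 17 were higher and 5 lower in the KO, where 49.8% of all genes tested were called. Single genes of these lists are given with all libraries. The shares of all genes tested are those given above, 29.9% higher and 35.5% lower in quiescent cells and 25.4% higher and 26.2% lower in the KO. They apply to each list below. The lists are short and were chosen with results in view, so their counts are a description.

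Lipolysis genes other than the members had 5 higher and 0 lower of 7 tested in quiescent cells (all genes: 29.9% higher, 35.5% lower). In the KO 3 were higher and 0 lower of 7 (all genes: 25.4% higher, 26.2% lower). The 3 called in the KO were among the 5: Abhd5, the coactivator of ATGL, Mgll, which cleaves the last fatty acid from monoglyceride, and Lipa, the lysosomal acid lipase. Abhd5 was 18.7 ± 1.02 CPM in proliferating and 34.2 ± 2.21 CPM in quiescent libraries (log2 0.87, SE 0.09), and 42.3 ± 2.53 in GFP and 59.4 ± 3.47 CPM in KO libraries (log2 0.49, SE 0.07, edgeR adjusted p = 7.55e-05). Mgll went from 47.7 to 91.6 CPM in quiescent cells (log2 0.94) and from 6.63 to 9.99 CPM in the KO (log2 0.59). Lipa went from 43.1 to 80.9 CPM (log2 0.91) and from 31.9 to 47.3 CPM (log2 0.57). In each case all libraries of the changed group lay above all controls.

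Of the genes for earlier steps of triglyceride synthesis, 7 were higher and 3 lower of 14 tested in quiescent cells, with 4 and 2 of 11 in the KO. Agpat5, which adds the second fatty acid, was 54.8 ± 2.42 CPM in proliferating and 149.6 ± 10.1 CPM in quiescent libraries (log2 1.45, SE 0.06). Phosphatidate phosphatase genes, whose enzymes make the diacylglycerol used by DGAT enzymes, split: Lpin1 rose from 97.5 to 212 CPM in quiescent cells (log2 1.12) and Lpin3 fell from 14.9 to 4.53 CPM (log2 -1.73). Lpin1 also rose in the KO, from 99.0 to 138 CPM (log2 0.48), where the acyl-CoA synthetase genes Acsl4 (log2 -0.57) and Acsl5 (log2 -0.44) fell.

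Droplet formation and contact genes had 7 higher and 2 lower of 13 tested in quiescent cells and 5 higher and 2 lower of 13 in the KO. Hsd17b11, which encodes a droplet-bound dehydrogenase, rose from 21.7 ± 1.68 to 57.3 ± 2.22 CPM in quiescent cells (log2 1.40, SE 0.08) and from 23.0 ± 1.35 to 57.6 ± 11.0 CPM in the KO (log2 1.32, SE 0.13, edgeR adjusted p = 1.29e-05). Acsl3, an acyl-CoA synthetase found on nascent droplets, rose from 16.3 to 53.7 CPM in quiescent cells (log2 1.73), and the bridge protein gene Vps13c from 3.70 to 8.49 CPM (log2 1.20). In the KO the seipin gene Bscl2 rose by 0.50 and Vmp1 fell by 0.40 on the log2 scale. Of the other CIDE and perilipin genes, only Cideb passed the filter in quiescent cells, at 2.19 ± 0.43 CPM in proliferating and 7.23 ± 0.78 CPM in quiescent libraries (log2 1.72, SE 0.22; it lies outside the naming rule and was chosen after its values were seen). None of that list passed the filter in the KO, and Cidec, Plin1 and Plin5 were not tested in either comparison.

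Sterol ester genes were few: Soat1, which makes sterol esters, and Nceh1, which cleaves them, were both higher in quiescent cells (log2 0.14 and 0.53), and Nceh1 alone of these was called in the KO (log2 0.26). Among nuclear receptors and other factors known to act on droplet genes, 8 were higher and 1 lower of 11 tested in quiescent cells, and 4 higher and 0 lower of 11 in the KO. Ppargc1a, a coactivator of mitochondrial and fat-burning genes, rose from 1.93 to 8.50 CPM in quiescent cells (log2 2.13, SE 0.30) and from 79.3 to 129 CPM in the KO (log2 0.70, SE 0.07). Epas1, which encodes the oxygen-regulated factor HIF-2α, rose from 129 to 379 CPM (log2 1.55) and from 95.2 to 125 CPM (log2 0.39). Cebpa, a fat cell transcription factor, rose in quiescent cells (log2 1.54) and Rxra, a partner of PPAR receptors, in the KO (log2 0.46).

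**Figure D5:**
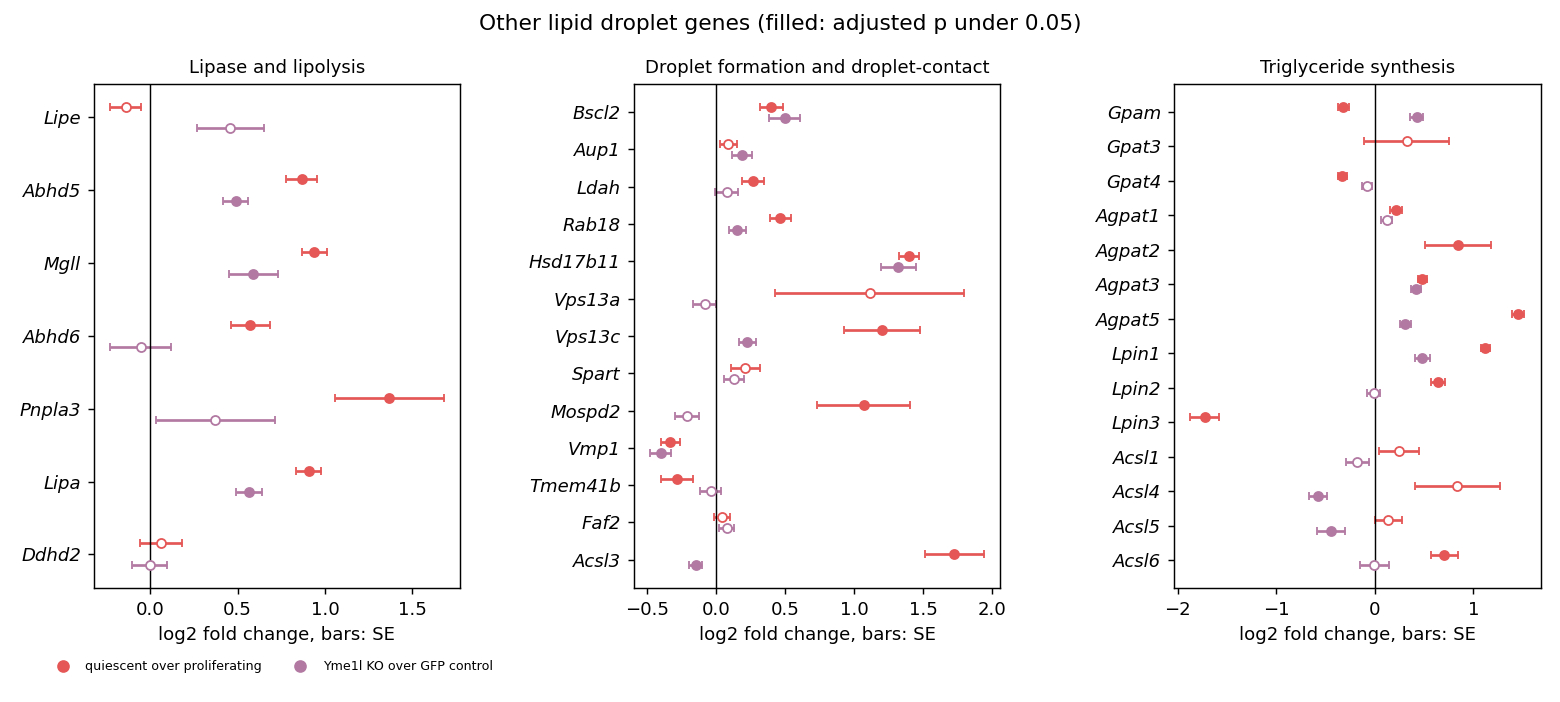
Log2 fold changes (horizontal axes) with standard errors as bars for 3 lists of other lipid droplet genes, quiescent over proliferating in red and Yme1l KO over GFP control in purple, with filled points for an edgeR adjusted p under 0.05. Abhd5, Mgll, Lipa, Hsd17b11 and Lpin1 were filled and to the right of 0 in both comparisons.

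The genes whose levels ran most like that of Cidea over the 8 quiescent and proliferating libraries, by Pearson's r of log2(CPM + 1) among 9829 genes with a mean of at least 5 CPM, were Plec (0.9994), Cxxc5 (0.9994), Ninj1 (0.9993), Scube3 (0.9993) and Prpsap1 (0.9991). All 5 were higher in quiescent cells, for example Plec at 729 against 54.1 CPM. The correlations are a description of 8 libraries in 2 groups which share the difference between those groups. Genes most like Plin2 were Rsad1 (0.987), Tollip (0.982), Fxyd6 (0.960), Kxd1 (0.955) and Med10 (0.940) over the same libraries. Over the 6 GFP and KO libraries, among 10651 genes, they were Zbtb49 (0.979), Gskip (0.976), Ddx28 (0.966), Zfp760 (0.962) and Hif1a (0.962), and no gene was on both of these lists.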

How the data were processed

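Poly-A RNA sequencing of 14 libraries was compared as quiescent against proliferating cells and Yme1l KO against GFP control, in the separate tables the authors deposited for each pair. Per the submitters' processing notes the genome build was GRCm39 and the test DESeq2 1.30.1 in R 4.0.3. The table names give salmon, whose version is not given in the sources used here. The main values were the deposited estimated counts (expected counts per gene), of which 6.13% (quiescent table) and 7.41% (KO table) were not whole, so they were rounded here. The authors also deposited TPM values, transcript counts and length-scaled counts, which equal the estimated counts within 0.5. Log2 fold changes, their standard errors and adjusted p-values of the deposited test tables are named as the authors' where printed, and their shrinkage is not stated.

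The test here was edgeR's robust quasi-likelihood fit over all genes (edgeR 4.0.16 and limma 3.58.1, in R 4.3.3), after TMM scaling and filterByExpr. A call is a Benjamini-Hochberg adjusted p below 0.05. Each standard error is the size of the log2 fold divided by the root of the F statistic. Transcript shares needed 20 counts in every library. The test was checked on simulated counts in which few genes changed, as many up as down. That check does not cover TMM scaling where most genes are called, as here. Sample groups came from the labels. Alternatives were RLE factors, library size alone, DESeq2 1.42.0, no filter, limma on log2(TPM + 1), length-scaled counts, a replicate block, leaving out each library and, added after seeing the data, TPM-scaled counts.

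Members, lists and tests were chosen with earlier results of these data known. Of each list of other droplet genes, the up to 3 called genes with the largest fold and a mean of at least 5 CPM were named, besides all members, Yme1l1 and the 5 genes most like Cidea and Plin2. One listed gene was matched by synonym (Spart as Spg20) and 1, Ldaf1, was not matched. Marker lists were NSPCs, astrocytes, oligodendrocyte lineage, neuroblasts and neurons, microglia, vessel cells, ependymal cells and adipocytes. Coordinates of genes are GRCm39 from the deposited table, and promoters are GRCm38.p6. Intervals cover counting error only.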

Additional observations from a re-analysis of the deposited data

Results flagged for a closer look

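Hilpda in proliferating replicate 4 was the highest of its 4 libraries, at 14.2 CPM against 11.8 to 12.2 CPM in the others, and its gap took 0.852 of the group's range, above Dixon's 95% critical value for 4 samples. It was the only one of 20 groups of 4 libraries (the 10 members in 2 groups each) to pass that value, and chance passes about 1 in 20 groups. Just short of it were Plin2 in quiescent replicate 2 (37.4 CPM against 42.7 to 43.8) and Dgat1 in proliferating replicate 5 (31.9 CPM against 39.6 to 41.2). All quiescent libraries lay below all 4 proliferating ones, and without this library Hilpda stayed lower in quiescent cells.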

How the results depend on the processing

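Between quiescent and proliferating cells, where calls of members are a description, 5 to 8 members were called over 16 alternatives. Over the same alternatives 42.1% to 65.7% of all genes tested were called. Pnpla2 and Dgat2 kept their side and their call in the KO under all 14 (log2 0.68 to 0.91 and -0.69 to -0.56). Plin3, near 0, turned to a log2 difference of 0.037 with RLE factors, 0.025 in DESeq2, 0.054 with TPM-scaled counts, 0.27 with the replicate block, 0.08 and 0.09 without proliferating replicates 1 and 5, and 0.20 and 0.05 without quiescent replicates 3 and 4. Members called in the KO fell from 5 to 2 in DESeq2, 3 in limma and 2 with TPM-scaled counts. They were between 3 and 5 when each library was left out (3 without GFP replicate 2 or 3). The share of all genes called fell as well, from 51.6% to 36.5% in DESeq2, 39.6% in limma and 37.1% with TPM-scaled counts. It was 43.4% to 49.8% when each library was left out. Fitm2 in the KO missed the threshold in DESeq2, limma and TPM-scaled counts (adjusted p = 0.0739, 0.0621 and 0.0651) and over all alternatives ranged from 0.00276 to 0.0739, Dgat1 from 0.0162 to 0.316 and G0s2 from 0.00732 to 0.127. Other droplet genes called in the KO were 21 in the main fit, 16 in DESeq2, 14 in limma and 13 with TPM-scaled counts. They were 19 with library size alone and 23 with no filter, where 51.9% and 30.3% of all genes tested were called. The cause of these shifts was not tested. With library size alone as the scaling, the median of all genes moved in the quiescent comparison to -0.15 and the split to 2823 higher and 5219 lower, from 3664 and 4346, and the log2 differences of Plin2 and Dgat1 to -0.29 and -0.27.

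Same-numbered libraries did not deviate together (correlations -0.346 to -0.014 and -0.048 to 0.002), so the numbers were not taken as pairs. Differently numbered libraries ranged from -0.371 to 0.507 in the first pair of groups and from -0.022 to 0.029 in the second. The highest was proliferating replicate 1 with quiescent replicate 2, and a factor shared by such libraries was not tested. With the replicate block 6 and 5 members and 29 and 21 other droplet genes were called in the quiescent and Yme1l comparisons. Of all genes tested 53.5% and 49.5% were called with that block.

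Cidea outside quiescent cells, Plin4 everywhere and Plin3 in the second pair had at most a few counts a library, which limits what can be read of them.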

Other observations

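Markers of other cell types gave the following sums. Microglial markers, in quiescent cells mostly Lyz2 and Tmem119, summed to at most 0.227 TPM in GFP and KO libraries. Vessel and fibroblast markers summed to 4.79 to 12.2 TPM in the first pair and 0.233 to 3.44 TPM in the second, with Cldn5 and Pdgfrb at 0. Neuroblast and neuron markers summed to 30.2 to 54.4 TPM in the first pair and 521 to 574 TPM in the second, mostly Map2, with Stmn2 at 0. Ependymal markers summed to 68.3 to 78.7 TPM in proliferating, 44.5 to 51.7 TPM in quiescent, 10.9 to 16.7 TPM in GFP and 16.1 to 21.4 TPM in KO libraries, with Tmem212 at 0.

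Proliferating and GFP control cells were both grown with FGF and EGF, but were quantified in separate tables, and no test was made between them. Side by side, mean Plin2 was 49.3 and 19.2 TPM, Pnpla2 71.2 and 34.5 TPM, Plin3 1.82 and 0.22 TPM and G0s2 17.3 and 20.9 TPM. The targeted gene, Yme1l1, was at 1.3 ± 0.40 TPM in proliferating and 51.1 ± 3.22 TPM in GFP control libraries. Yme1l1 measured 3.90, 3.09, 4.77 and 2.18 CPM in proliferating and 4.85, 11.1, 3.91 and 4.88 CPM in quiescent libraries, below the 22.9 to 25.7 CPM of the Yme1l KO libraries of the other table.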
